A study of Mus musculus with 3 samples.

Results

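The genes described here are the subunits, assembly chaperones and regulators of the proteasome in mouse C2C12 myoblasts. They were chosen by name: every probe set with a single gene symbol that begins with Psm, a letter from a to g and a digit. The rule gave 103 probe sets for 49 genes, out of 34958 probe sets with 1 symbol that cover 18194 genes, on an array of 45101 probe sets. By role they were 8 genes of the 20S alpha ring, 7 of the 20S beta ring, 4 of the immunoproteasome and thymoproteasome, 6 19S ATPases, 3 other subunits of the 19S base, 8 of the 19S lid, 7 assembly chaperones and 4 activators or inhibitors. The remaining 2 genes, Psmc3ip and Psme3ip1, carry a matching symbol and are not proteasome subunits. Psme2, the partner of Psme1 in the interferon-inducible activator, shares its probe set with a second symbol and falls outside the rule.

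C2C12 is an established mouse myoblast line. Lines carried an shRNA against FoxO1, against FoxO3 or against FoxO4, and all were kept under puromycin in DMEM. Colonies were screened for how well the hairpin removed its target, so effects of the hairpin and of the colony cannot be told apart. Total RNA of each line was measured on 1 Affymetrix mouse array, with no replicates, so differences below are sizes with no p-value. A control RNAi enters only through the authors' deposited log2 ratio for the array labelled FoxO1, rounded to 0.1. A control signal was derived by subtracting that ratio from the log2 signal of that array. A signal given as on FoxO1 was read on the array labelled FoxO1, and likewise for FoxO3 and FoxO4. The implied control is approximate, is shared by every comparison that uses it, and was added after the values had been seen.

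Foxo1 went against its label, and its brightest probe set read 2778 on the array labelled FoxO1, 563 on FoxO3, 1827 on FoxO4 and 1209 in the implied control. The brightest probe set of Foxo3 read 1357 on FoxO1, 1047 on FoxO3, 1016 on FoxO4 and 1029 in the implied control, while a second read 2380 on FoxO1, 1573 on FoxO3 and 386 on FoxO4. One Foxo4 probe set read 1799 on FoxO1, 345 on FoxO3 and 80.4 on FoxO4, with an implied control of 1678, and a second was highest on FoxO4 at 763. The 5 myoblast markers Myod1, Myf5, Des, Cdh15 and Myog were above the floor on all 3 arrays, although the brightest Des probe set read only 272 on the array labelled FoxO4, against 6907 on FoxO1 and 7433 on FoxO3. The ratio of 3' to 5' probe sets of Gapdh, a sign of RNA integrity, was 5.0 on the array labelled FoxO1, 5.9 on FoxO3, 2.23 on FoxO4 and 2.68 in the implied control. For beta-actin the same ratio was 6.31 on FoxO1, 5.5 on FoxO3, 3.45 on FoxO4 and 2.56 in the implied control. Fibroblast markers (4 of 4 above the floor on every array) summed to 67831 on FoxO1, 13946.5 on FoxO3 and 34829 on FoxO4, where Postn alone read 24592 on FoxO1, 4823 on FoxO3 and 28004.5 on FoxO4. Col1a1 read 42337 on FoxO1, 8321 on FoxO3 and 6319 on FoxO4 by its brightest probe set. Pdgfra and Thy1 were likewise higher on FoxO3 than on FoxO4 by that probe set, against the order of the sums. By the median over probe sets, Col1a1 and Pdgfra were lower on FoxO3 than on FoxO4. Over control RNAi, 5 of 5 myoblast markers were at least 2-fold lower by the brightest probe set (median ratio -1.9, beside 16.8% of all genes lower), and 4 of 4 fibroblast markers at least 2-fold higher (median 2.2, beside 21.1% higher). By the median over probe sets, 3 of 5 myoblast markers were lower (median -1.3, beside 17.1%) and 3 of 4 fibroblast markers higher (median 2.125, beside 18.8%). The part of RNA integrity, of fibroblast-like cells or of the myoblast state in any result below was not tested.

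The proteasome degrades proteins tagged with ubiquitin. Its 20S core is a barrel of outer alpha and inner beta rings, and proteolysis is done by Psmb5, Psmb6 and Psmb7. The 19S cap binds, deubiquitinates, unfolds and feeds the substrate: its base holds a ring of ATPases and its lid holds the deubiquitinase Psmd14. In muscle, FoxO factors are known for driving wasting through ubiquitin ligases, and the transcription factor Nfe2l1 is known for raising proteasome genes together when the proteasome is inhibited.

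Proteasome genes were brightly expressed in these cells. The brightest probe set averaged over 1000 for 40 of the 49 genes, the value to which the trimmed mean of each array had been scaled, and 32 of 49 had a gene value in the upper 25% of all genes. The dim members were Psma8, the 4 immunoproteasome and thymoproteasome genes, Psmd10, Psme3, Psmf1 and Psmc3ip. All 49 had a probe set above the floor, the 20th percentile of signal, on all 3 arrays.

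The plot of member signals shows how close the arrays lay for most constitutive subunits.

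**Figure D1:**
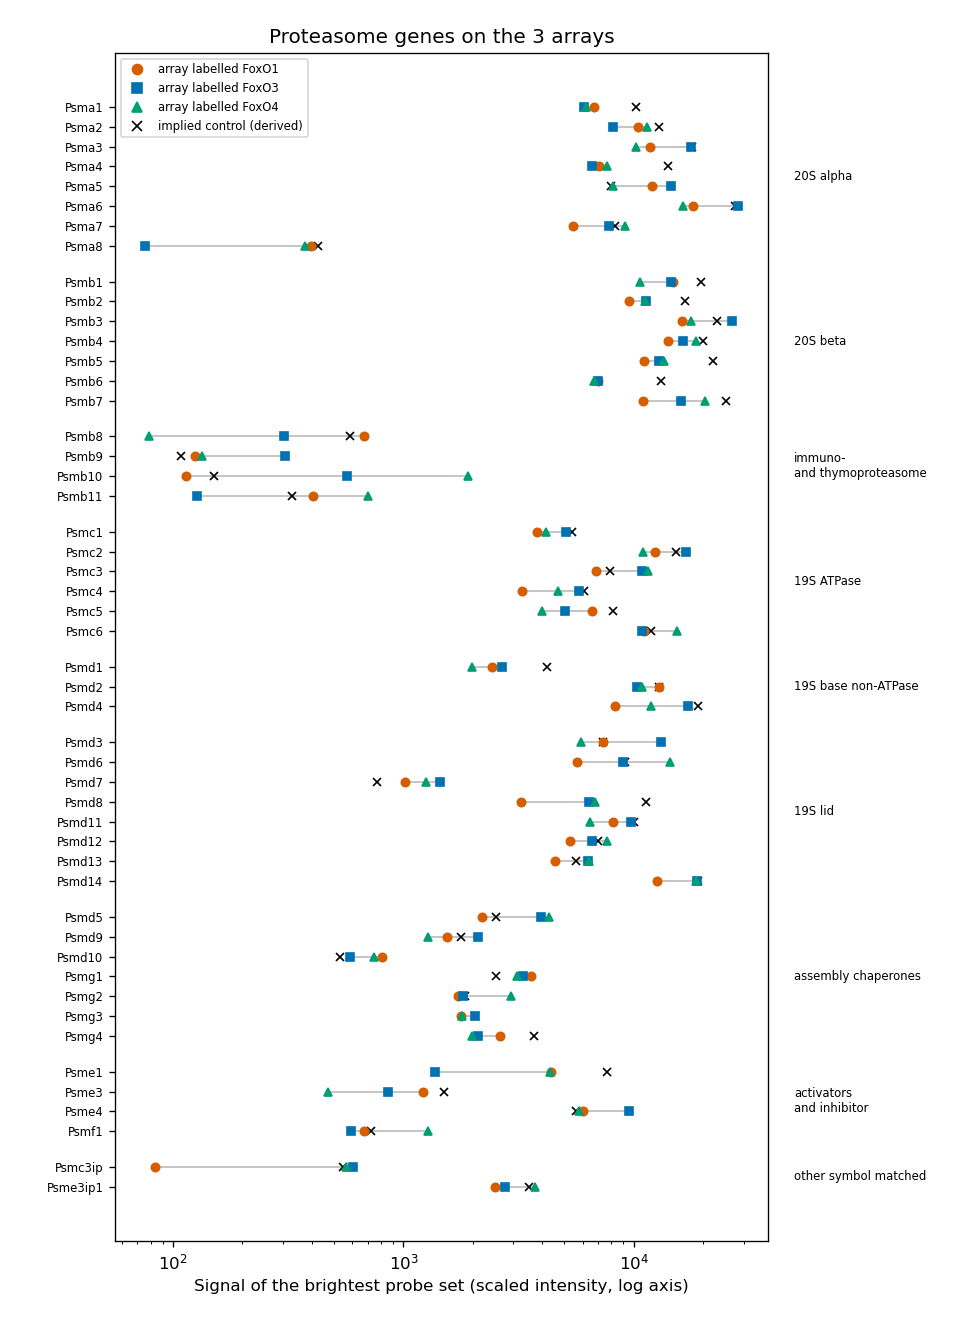
Signal of the brightest probe set of each of the 49 genes (scaled intensity, log axis), grouped by role, on arrays labelled FoxO1, FoxO3 and FoxO4, with the implied control as a cross and a grey line joining the lowest and highest array. Most core and cap subunits lie within 2-fold across the arrays, while Psma8, Psmb8, Psmb10, Psmb11, Psme1 and Psmc3ip spread over 3-fold.

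With the gene value taken as the median over probe sets, few members passed 2-fold. Between the arrays labelled FoxO1 and FoxO3, 5 of 49 were at least 2-fold higher on the array labelled FoxO1, beside 21.3% of all genes, and 6 were at least 2-fold lower, beside 17.4%. Against the array labelled FoxO4, 3 were higher on the array labelled FoxO1 (20.4% of all genes) and 4 lower (16.9%). Between the arrays labelled FoxO3 and FoxO4, 5 were higher on the array labelled FoxO3 (17.9% of all genes) and 7 lower (18.6%). In the deposited ratio of FoxO1 RNAi over control RNAi, 1 was higher (18.8% of all genes) and 7 lower (17.1%). In every one of these counts the members' share lay below that of all genes, most of which are dimmer than proteasome genes. Among bright genes the share was higher for members in 1 of the counts: 6 of 40 bright members (15.0%) were at least 2-fold lower over control, beside 11.6% of 7681 bright genes.

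The members were on balance slightly lower on the array labelled FoxO1. Their median log2 difference was -0.20 against the array labelled FoxO3, where all genes had 0.14, and -0.23 against FoxO4, where all genes had 0.071. It was 0.015 for FoxO3 minus FoxO4 and -0.30 for FoxO1 over control, beside -0.081 and 0.0 for all genes. With each array centred on its own median, the member medians were -0.45 for FoxO1 minus FoxO3, with 4 members at least 2-fold higher and 10 lower, and -0.44 for FoxO1 minus FoxO4, with 2 higher and 8 lower. Centring shifts every gene of a comparison by the same amount, so the gap between the member and all-gene medians stays as it was. The share of all genes past 2-fold after centring was not computed, so those counts cannot be set against it. In bulk RNA, fewer cells of a type and less RNA per cell cannot be told apart. Among the 40 bright members, read by their brightest probe set, 29 (72.5%) were lower on the array labelled FoxO1 than on FoxO3, against 51.8% of 7681 bright genes. Against FoxO4 the count was 23 of 40 (57.5%, beside 50.8% of bright genes), and 34 of 40 (85.0%) had a ratio to control below 0, beside 49.9%. By the median over probe sets these counts were 27 of 40 (67.5%, beside 50.3% of bright genes), 25 of 40 (62.5%, beside 51.0%) and 32 of 40 (80.0%, beside 51.0%). The other arrays were also mostly below the implied control. By the brightest probe set, 28 of the 40 were below it on FoxO3 (3857 of 7681 bright genes) and 27 on FoxO4 (3780 of 7681). The median over probe sets gave 24 on FoxO3 (3973 of 7681) and 25 on FoxO4 (3815 of 7681). By the brightest probe set, the array labelled FoxO1 was the lowest of the 3 arrays for 20 of the 40 (50.0%) and for 33.4% of bright genes. These comparisons share the array labelled FoxO1 and are not independent of each other. As a measure of how precisely a single bright probe set reads its gene, bright probe sets of 1 gene had a pooled SD over all genes of 0.68 for FoxO1 minus FoxO3, 0.78 for FoxO1 minus FoxO4, 0.81 for FoxO3 minus FoxO4 and 0.70 for FoxO1 over control.

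The plot of differences by role shows how the members of each class fell about 0.

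**Figure D2:**
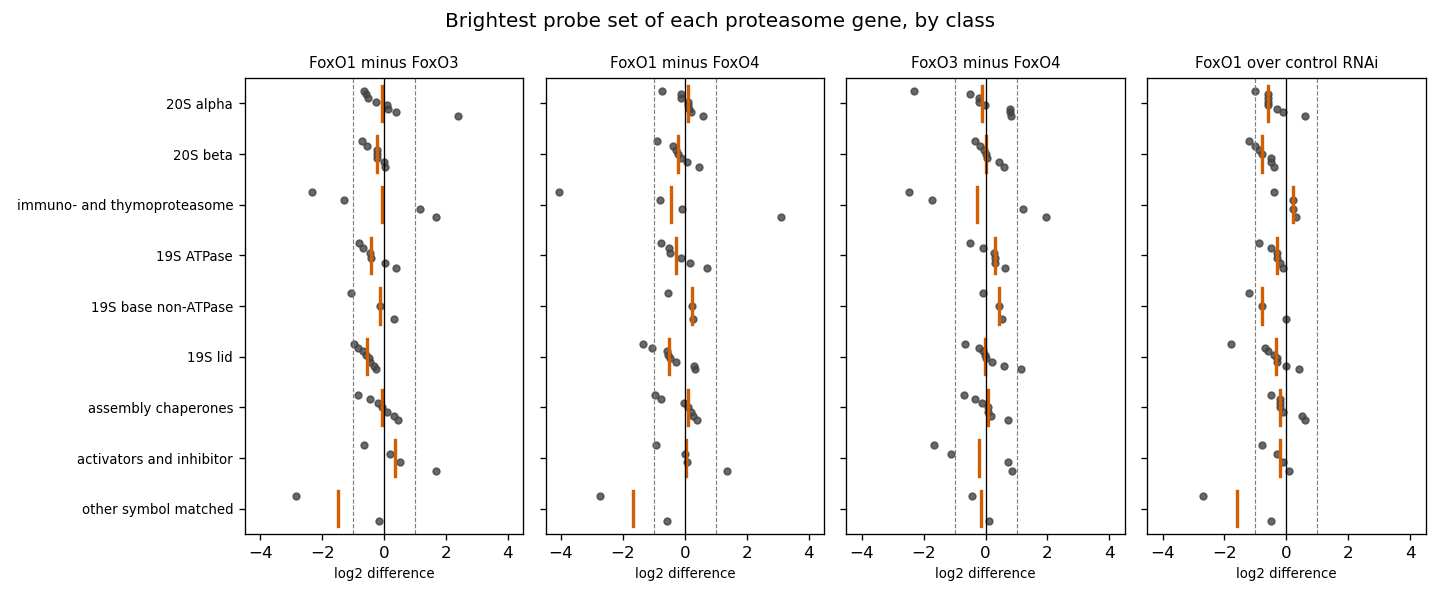
Log2 difference of the brightest probe set of each gene by role, for FoxO1 minus FoxO3, FoxO1 minus FoxO4, FoxO3 minus FoxO4 and FoxO1 over control RNAi; points are genes, orange bars class medians and dashed lines 2-fold. The 8 lid genes lie left of 0 in FoxO1 minus FoxO3, and the 7 beta genes lie left of 0 in FoxO1 over control.

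The authors' deposited calls pointed the same way. They were given with the deposited ratio for the same comparison of FoxO1 RNAi with control RNAi, so they are not separate evidence. In the deposited table, 12 of 103 member probe sets (11.7%) carried a decrease call for FoxO1 RNAi over control RNAi, beside 4.21% of all probe sets, and 0 carried an increase call, beside 1.26%. Among probe sets averaging over 1000, a range in which calls are more frequent, 12 of 59 member probe sets (20.3%) carried a decrease call, beside 12.1% of 11534, and 0 an increase call, beside 4.57%. The calls fell on 9 genes: Psma7, Psmb3, Psmb4, Psmb6, Psmb7, Psmd4, Psmd6, Psmd8 and Psme3ip1. Psma7, Psmb3 and Psmd4 each carried a call on a pair of probe sets. Of the 59 bright member probe sets 46 (78.0%) had a ratio below 0 with a median of -0.4, beside 51.4% and -0.1 for all bright probe sets.

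**Figure D3:**
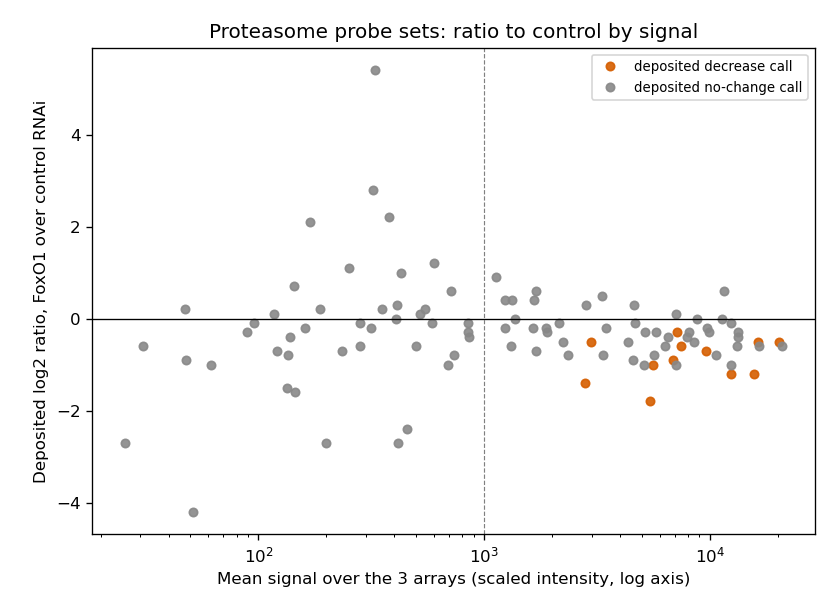
The authors' deposited log2 ratio of FoxO1 RNAi over control RNAi against the mean signal of the 3 arrays (log axis) for the 103 member probe sets; orange points carry a decrease call, grey points no call of change, and the dashed line marks a signal of 1000. Right of 1000 most points lie below 0 and all 12 calls are there, while left of it ratios scatter from -4.2 to 5.4.

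The alpha ring, which gates the core, was close to even between arrays. Read by the brightest probe set, 4 of its 8 genes were lower on the array labelled FoxO1 than on FoxO3 (class median -0.079), 3 of 8 were lower than on FoxO4 (median 0.10), and 7 of 8 were below 0 over control (median -0.60). By the median over probe sets the class medians were -0.12 for FoxO1 minus FoxO3, -0.015 for FoxO1 minus FoxO4 and -0.38 over control. Psma7, the alpha subunit with decrease calls, read 5456 on FoxO1, 7818 on FoxO3 and 9149 on FoxO4, and 8270 in the implied control. Its other probe set read 5263 on FoxO1, 7999.5 on FoxO3 and 8316 on FoxO4, so both placed the array labelled FoxO1 lowest. Psma4 read 7073 on FoxO1, 6578 on FoxO3 and 7661 on FoxO4, with an implied control of 14145, and its deposited ratio of -1.0 carried no call of change. Psma5 lay on the other side, with a brightest probe set at 12055 on FoxO1, 14460.4 on FoxO3 and 8104 on FoxO4 and an implied control of 7953. A second bright Psma5 probe set read 5252 on FoxO1, 11854 on FoxO3 and 8386 on FoxO4, so the ratio of Psma5 to control was 0.6 on one probe set and -0.5 on the other. Psma3 read 11792 on FoxO1, 17691 on FoxO3 and 10272 on FoxO4, with an implied control of 17873. Its median ratio of -2.4 joins the bright ratio of -0.6 with one of -4.2 from a probe set at 34.1 on FoxO1, 36.8 on FoxO3 and 82.8 on FoxO4, below the floor on 2 of the arrays. Psma6 read 18057 on FoxO1, 28429.6 on FoxO3 and 16293 on FoxO4, with an implied control of 27369. Its median value of 1.43 for FoxO1 minus FoxO4 included a probe set that read 2217 on FoxO1, 1656 on FoxO3 and 259 on FoxO4.

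Psma8, the testis form that takes the place of Psma7 in germ cells, was dim. Its only probe set read 399 on the array labelled FoxO1, 75.4 on FoxO3 and 375 on FoxO4, a log2 difference of 2.40 for FoxO1 minus FoxO3 and -2.31 for FoxO3 minus FoxO4. The value on the array labelled FoxO3 stood just above that array's floor of 73.1. The spermatocyte markers Sycp3 and Dmc1 summed to 673 on FoxO1, 364 on FoxO3 and 512 on FoxO4, with 1 of them at the floor on FoxO4. Their part in the Psma8 signal was not tested.

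The beta ring carries the active sites and was the core class furthest below the control. All 7 genes had a ratio below 0, from -0.4 for Psmb1 to -1.2 for Psmb7, with a class median of -0.8 by the brightest probe set. Of all bright members 85.0% were below 0, and of bright genes 49.9%. Psmb7, the trypsin-like subunit, read 10937 on FoxO1, 16046 on FoxO3 and 20434 on FoxO4 and 25127 in the implied control, with a decrease call. Psmb5, the chymotrypsin-like subunit and the usual target of proteasome inhibitors, read 11026 on FoxO1, 12897 on FoxO3 and 13468 on FoxO4, and 22052 in the implied control, a ratio of -1.0 with no call of change. Psmb6, the caspase-like subunit, was nearly equal on the 3 arrays at 7001 on FoxO1, 6979.5 on FoxO3 and 6718 on FoxO4, and its ratio of -0.9 to an implied control of 13064 carried a decrease call. All 3 catalytic subunits were below the implied control on all 3 arrays, and of these only Psmb7 differed between arrays by over 1.5-fold. Of the structural subunits, Psmb3 read 16238 on FoxO1, 26693 on FoxO3 and 17800 on FoxO4 and Psmb4 14094 on FoxO1, 16411 on FoxO3 and 18550 on FoxO4, and both carried decrease calls.

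The other arrays stood near FoxO1 when set against the same implied control. By the brightest probe set, the array labelled FoxO3 was below it for 6 of 7 beta genes (median -0.56) and the array labelled FoxO4 for 7 of 7 (median -0.57). Of 7681 bright genes, 3857 were below it on FoxO3 and 3780 on FoxO4. The implied control is a shared denominator with a 2% trimmed mean of 1043, where each array has 1000, so these counts are not separate evidence.

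Promoters were available from RefSeq (GRCm38.p6) for 41 of the 49 genes. The bases before the annotated start of 4 genes are printed to show the sequence upstream of a pair of catalytic beta subunits and of Psmd8 and Psme1, in lower case with matches to TGACNNNGC, a form of the antioxidant response element to which Nfe2l1 and Nfe2l2 bind, in capitals. Psmb5 lies at chr14:54617996-54618245, reverse strand, Psmb6 at chr11:70525107-70525356, forward strand, Psmd8 at chr7:29180674-29180923, reverse strand and Psme1 at chr14:55578244-55578493, forward strand.
Psmb5: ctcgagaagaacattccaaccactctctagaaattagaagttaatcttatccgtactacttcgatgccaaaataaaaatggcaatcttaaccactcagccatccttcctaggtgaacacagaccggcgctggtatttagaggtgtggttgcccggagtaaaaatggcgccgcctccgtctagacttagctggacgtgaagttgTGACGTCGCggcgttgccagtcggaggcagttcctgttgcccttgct
Psmb6: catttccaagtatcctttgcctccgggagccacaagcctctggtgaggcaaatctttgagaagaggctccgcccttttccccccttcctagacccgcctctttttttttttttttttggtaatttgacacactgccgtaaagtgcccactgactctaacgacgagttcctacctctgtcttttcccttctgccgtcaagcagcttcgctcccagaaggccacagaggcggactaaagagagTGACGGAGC
Psmd8: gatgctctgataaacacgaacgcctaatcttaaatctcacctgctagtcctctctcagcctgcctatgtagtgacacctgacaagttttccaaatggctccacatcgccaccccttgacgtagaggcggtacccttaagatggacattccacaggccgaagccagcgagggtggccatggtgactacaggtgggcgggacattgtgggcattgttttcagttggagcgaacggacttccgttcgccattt
Psme1: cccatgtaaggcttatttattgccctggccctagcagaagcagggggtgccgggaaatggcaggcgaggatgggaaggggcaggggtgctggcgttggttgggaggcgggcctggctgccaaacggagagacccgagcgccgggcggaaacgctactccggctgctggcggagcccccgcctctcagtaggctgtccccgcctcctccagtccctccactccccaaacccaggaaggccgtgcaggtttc

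Over 300 bases around the annotated start, 250 of them upstream, TGACNNNGC on either strand was found in 6 of 41 members (Psmb5, Psmb6, Psmc6, Psmd9, Psmd12 and Psme4), or 14.6%, and in 13.99% of 27025 genes. The matches of Psmb5 and Psmb6 began at -47 and -9. GTAAACA, the forkhead core to which FoxO factors bind, was in 0 of 41 members and 4.05% of genes. GAAANNGAA, an interferon-type element, was in 7 of 41 (17.1%, beside 9.76% of genes): Psmb3, Psmb4, Psmc2, Psmd4, Psmd9, Psme1 and Psmg4. CCAAT was in 39.0% of members and 41.1% of genes. The motifs were searched separately on both strands, so a base may count for more than 1 of them. The start used in C2C12 cells was not measured, and 33 of the 44 member windows take the outermost start of the gene.

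The immunoproteasome subunits, which interferon induces to replace the catalytic ones, were dim and differed from array to array in no common direction. Psmb10, the replacement for Psmb7, had the widest spread of all members: its only probe set read 114 on the array labelled FoxO1, 569 on FoxO3, 1903 on FoxO4 and 151 in the implied control. Its log2 difference was -4.06 for FoxO1 minus FoxO4 and -2.32 for FoxO1 minus FoxO3, where dim probe sets of 1 gene had a pooled SD of 1.57 and 1.56. Psmb9, the replacement for Psmb6, read 124 on FoxO1, 307 on FoxO3 and 134 on FoxO4, and was highest on the array labelled FoxO3. Psmb8, the replacement for Psmb5, could not be ordered, because one probe set read 672 on FoxO1, 304 on FoxO3 and 78.6 on FoxO4 and the other 55.7 on FoxO1, 214 on FoxO3 and 163 on FoxO4. Psmb11, the thymus cortex subunit, read 405 on FoxO1, 127 on FoxO3 and 701.5 on FoxO4, lowest on the array labelled FoxO3.

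Of the other genes of antigen presentation, 1 of the 9 measured had the order of Psmb10, lowest on FoxO1 and highest on FoxO4, by the median over probe sets, and 0 had it by the brightest probe set. It was Tap1, a peptide transporter, with a median value of 90.3 on FoxO1, 111 on FoxO3 and 204 on FoxO4 and a brightest probe set at 698 on FoxO1, 523 on FoxO3 and 354 on FoxO4. From that list of 10, by the median over probe sets, 2 were at least 2-fold higher (21.3% of all genes) and 1 lower (17.4%) for FoxO1 minus FoxO3, and 2 higher (20.4%) and 2 lower (16.9%) for FoxO1 minus FoxO4. Read by the brightest probe set, 3 were higher (20.7% of all genes) and 1 lower (18.0%) for FoxO1 minus FoxO3, and 4 higher (19.9%) and 0 lower (16.4%) for FoxO1 minus FoxO4. Tap2, the partner of Tap1, read 3025 on FoxO1, 1458 on FoxO3 and 809 on FoxO4, and Nlrc5, an activator of class I genes, read 436 on FoxO1, 2071 on FoxO3 and 225 on FoxO4. Markers of immune cells (Ptprc, Cd68, Adgre1 and Cd3e) summed to 1139 on FoxO1, 2855 on FoxO3 and 2249 on FoxO4. Ptprc, which defines blood cells, was at the floor on FoxO3 and FoxO4 and read 127 on FoxO1. The part of such cells in the Psmb10 values was not tested.

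The 19S ATPases unfold the substrate and were mixed between arrays. By the median over probe sets, 3 of 6 were lower on the array labelled FoxO1 than on FoxO3 (median -0.047) and 3 of 6 lower than on FoxO4 (median -0.18), and 5 of 6 were below 0 over control (median -0.25). By the brightest probe set, 4 of 6 were lower than on FoxO3 (median -0.43), 4 of 6 lower than on FoxO4 (median -0.30) and 6 of 6 below 0 over control (median -0.30), with none past 2-fold by that probe set and no decrease call. Psmc4 read 3263 on FoxO1, 5780 on FoxO3 and 4695 on FoxO4. Its second probe set read 814 on FoxO1, 2947 on FoxO3 and 1355 on FoxO4, again lowest on the array labelled FoxO1, which put the median value of Psmc4 at -1.34 for FoxO1 minus FoxO3. Psmc3 read 6840 on FoxO1, 10881 on FoxO3 and 11535 on FoxO4, while Psmc5 ran the other way at 6570 on FoxO1, 5004 on FoxO3 and 4011 on FoxO4. Psmc6 read 11075 on FoxO1, 10889 on FoxO3 and 15383 on FoxO4 by its brightest probe set, and its median value was -1.09 for FoxO1 minus FoxO4.

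Of the base subunits without ATPase activity, Psmd4 is a receptor for ubiquitin chains and Psmd1 and Psmd2 are scaffolds. The brightest Psmd4 probe set read 8251 on FoxO1, 17234 on FoxO3 and 11897 on FoxO4 and 18957 in the implied control, with a ratio of -1.2. A second Psmd4 probe set read 2061 on FoxO1, 2366 on FoxO3 and 3949 on FoxO4 with a ratio of -1.4, and both carried a decrease call. The third, at 1635 on FoxO1, 572 on FoxO3 and 1796 on FoxO4, had a ratio of 0.4. Psmd2 was nearly level at 12826 on FoxO1, 10279 on FoxO3 and 10881 on FoxO4 by its brightest probe set and had a ratio of 0.0. Its median value of 1.41 for FoxO1 minus FoxO4 came from averaging in a second, dim probe set that read 465 on FoxO1, 603 on FoxO3 and 66.2 on FoxO4.

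The lid lay in 1 direction between the arrays labelled FoxO1 and FoxO3. By the brightest probe set all 8 genes were lower on the array labelled FoxO1 than on FoxO3 (from -0.97 for Psmd8 to -0.24 for Psmd11, median -0.54), and 6 of 8 were lower than on FoxO4 (median -0.51). Of all bright members 72.5% and 57.5% were lower in these comparisons, and of bright genes 51.8% and 50.8%. The 8 genes were read on the same arrays and are not replicates. By the median over probe sets 7 of 8 were lower in each comparison, with class medians of -0.70 and -0.47. Over control the class was less even, with 6 of 8 below 0 and a median of -0.35. Between the arrays labelled FoxO3 and FoxO4 the lid had no common direction, with 4 of 8 on each side of 0.

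Psmd8, a lid subunit that joins late in assembly, had the lowest bright ratio of all members. It read 3250.3 on the array labelled FoxO1, 6382 on FoxO3, 6752 on FoxO4 and 11318 in the implied control, with a ratio of -1.8 and a decrease call. Psmd14, the deubiquitinase, read 12556 on FoxO1, 18761 on FoxO3 and 18597 on FoxO4 and 19032 in the implied control, so only the array labelled FoxO1 stood apart. Psmd6 read 5639 on FoxO1, 8965 on FoxO3 and 14349.9 on FoxO4 by its bright probe set, with a decrease call, and 656 on FoxO1, 861 on FoxO3 and 287 on FoxO4 by its dim one, which reverses the order of the arrays labelled FoxO1 and FoxO4. Psmd3 differed between the others: it read 7341 on FoxO1, 13129 on FoxO3 and 5918 on FoxO4, a log2 difference of 1.15 for FoxO3 minus FoxO4, and its implied control equalled the array labelled FoxO1 at 7341. Psmd12 read 5294 on FoxO1, 6602 on FoxO3 and 7631 on FoxO4. Psmd13 read 4567 on FoxO1, 6324 on FoxO3 and 6418 on FoxO4. Psmd7, a scaffold of the lid and partner of Psmd14, read 1018 on FoxO1, 1435 on FoxO3 and 1253.5 on FoxO4 by its bright probe set, and its median value of -1.27 for FoxO1 minus FoxO3 rested on a pair of dim ones. Psmd11 has 8 probe sets, and their FoxO1 minus FoxO3 differences ran from -2.90 to 1.74.

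Assembly chaperones, which build the core and the base and leave the finished particle, were near even between arrays. By the brightest probe set 4 of 7 were lower on the array labelled FoxO1 than on FoxO3 (median -0.069) and 3 of 7 lower than on FoxO4 (median 0.11). By the median over probe sets 2 of 7 were lower in each, with class medians of 0.23 and 0.11. Psmd5, a chaperone of the base, was lowest on the array labelled FoxO1 at 2203, against 3942 on FoxO3 and 4295 on FoxO4, and its implied control was 2531. By the brightest probe set the core chaperones Psmg1, Psmg3 and Psmg4 differed by less than 1.5-fold, with Psmg1 at 3573 on FoxO1, 3311.5 on FoxO3 and 3118.5 on FoxO4. Psmg2, the partner of Psmg1, read 1729 on FoxO1, 1814 on FoxO3 and 2920 on FoxO4 by its brightest probe set.

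Psme1 was the bright member that differed most between arrays. It encodes the alpha subunit of the interferon-inducible 11S activator, and its only probe set read 4373 on the array labelled FoxO1, 1372 on FoxO3, 4331 on FoxO4 and 7615 in the implied control. Its signal was low on the array labelled FoxO3, with log2 differences of 1.67 for FoxO1 minus FoxO3 and -1.66 for FoxO3 minus FoxO4. By the brightest probe set, 11.6% of bright genes were at least 2-fold higher for FoxO1 minus FoxO3 and 11.7% at least 2-fold lower for FoxO3 minus FoxO4. Both Psme1 differences exceed the pooled SD of 0.68 and 0.81 between bright probe sets of 1 gene, which does not measure the spread between arrays of a line. No second Psme1 probe set was there to repeat them. Psme3, the nuclear activator, read 1212 on FoxO1, 855 on FoxO3 and 472 on FoxO4 by its brightest probe set. Psme4, the activator known from histone degradation in testis, read 6035 on FoxO1, 9499 on FoxO3 and 5811 on FoxO4 by its brightest probe set. Its 6 probe sets disagreed, and its median value of 1.03 for FoxO1 minus FoxO3 came from dim ones. Psmf1, an inhibitor of the core in vitro, read 675.5 on FoxO1, 594 on FoxO3 and 1282.5 on FoxO4 by its brightest probe set. A second Psmf1 probe set was lowest on FoxO4, at 521 on FoxO1, 671 on FoxO3 and 447 on FoxO4, while its remaining ones were highest there.

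Of the pair of genes matched by symbol alone, 1 was bright and 1 dim. Psmc3ip, a meiotic recombination factor, read 83.8 on the array labelled FoxO1, 604 on FoxO3, 561 on FoxO4 and 544.5 in the implied control, and its second probe set read 102 on FoxO1, 253 on FoxO3 and 240.4 on FoxO4. Both had a deposited ratio of -2.7 with no call of change, and 83.8 is near that array's floor of 81.2. Psme3ip1, which binds the nuclear activator, read 2487 on FoxO1, 2757 on FoxO3 and 3722 on FoxO4 with a decrease call. Without this pair, the median of the 47 other members was -0.20 for FoxO1 minus FoxO3 and -0.30 for FoxO1 over control.

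The choice of probe set decided several members. For 27 genes with several probe sets, the values of 1 gene spread with a pooled SD of 1.02 for FoxO1 minus FoxO3, 1.02 for FoxO1 minus FoxO4, 0.98 for FoxO3 minus FoxO4 and 1.12 for FoxO1 over control. The remaining 22 members have 1 probe set, and 44 of the 103 probe sets averaged under 1000. Psmd9 passed 2-fold by the median at 1.32 for FoxO1 minus FoxO3 and read 1540 on FoxO1, 2107 on FoxO3 and 1281 on FoxO4 by its brightest probe set, a difference of -0.45. The members given no values of their own (Psma1, Psma2, Psmb1, Psmb2, Psmc1, Psmc2, Psmd1, Psmd10, Psmg3 and Psmg4) were close between arrays, and the highest array stood over the lowest by 1.1-fold for Psma1 up to 1.53-fold for Psmc2 by the brightest probe set. Differences of Psme1 (FoxO1 minus FoxO3 and FoxO3 minus FoxO4), Psmb10 (FoxO1 minus FoxO4 and FoxO3 minus FoxO4), Psmd3 and Psmb11 (FoxO3 minus FoxO4), and Psmd8 and Psmc3ip (FoxO1 over control) passed 2-fold the same way under every setting run for them. All of these except Psmc3ip have 1 probe set, so settings that change the probe set or gene summary return the same value by construction. Dim members were left out of the signal filters, and the floor settings were not run for the ratio. Passing every setting is therefore no sign that these members are more reliable than those with several probe sets.

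**Figure D4:**
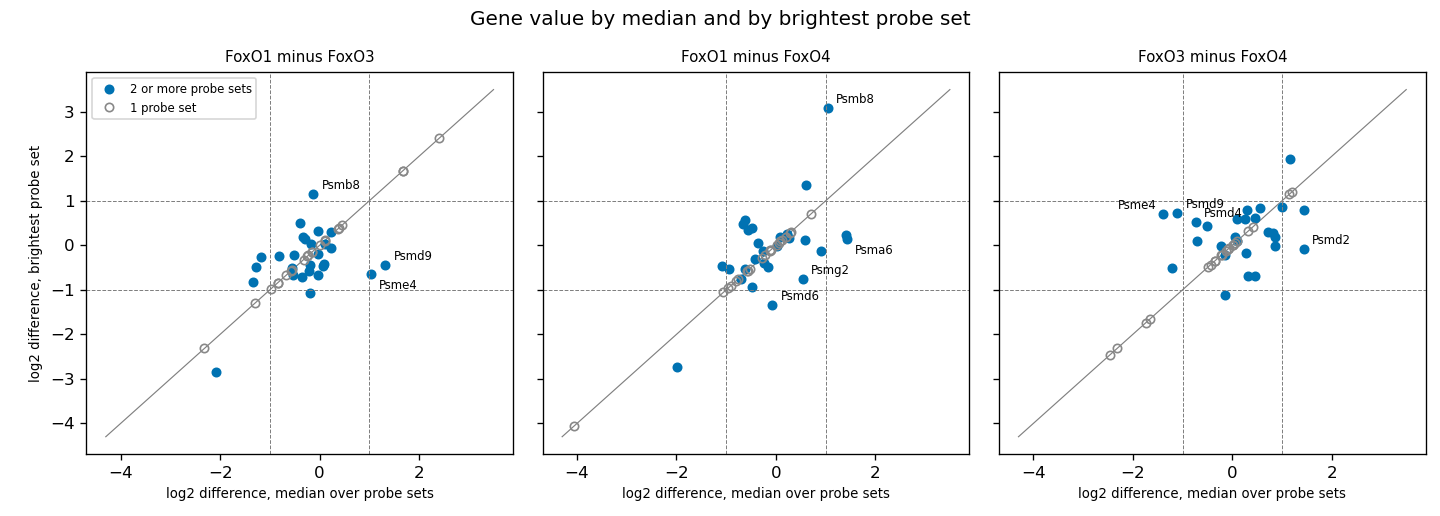
Log2 difference by the brightest probe set (vertical) against the median over probe sets (horizontal) for each gene in the 3 comparisons of arrays; filled points have 2 or more probe sets, open points 1, and the genes that differ most are named. Points in the upper left and lower right, such as Psmd9 and Psme4, change sign with the choice.

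Genes that serve the proteasome outside the rule were read from lists set with these data known. Of 10 cofactors 8 were measured. By the brightest probe set 0 were at least 2-fold higher and 1 lower for FoxO1 minus FoxO3 (20.7% and 18.0% of all genes), and 0 in either direction for FoxO1 minus FoxO4 (19.9% and 16.4%). The median over probe sets gave 1 higher and 0 lower in each, beside 21.3% and 17.4% of all genes for FoxO1 minus FoxO3 and 20.4% and 16.9% for FoxO1 minus FoxO4. Pomp, which matures the beta ring, read 7545 on FoxO1, 9491 on FoxO3 and 8515 on FoxO4 with a ratio to control of -0.5. Sem1, the smallest lid subunit, read 13692 on FoxO1, 13832.5 on FoxO3 and 16649 on FoxO4, with a ratio of -0.6. Uchl5, a deubiquitinase of the cap, read 1199 on FoxO1, 2660.2 on FoxO3 and 1271 on FoxO4, highest on the array labelled FoxO3.

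The transcription factors known for proteasome genes had no common order. Nfe2l1 read 16507 on FoxO1, 6423.5 on FoxO3 and 9375 on FoxO4, highest on the array labelled FoxO1. By the brightest probe set, 20 of the 40 bright members (50.0%) were lowest on that array, beside 33.4% of bright genes. A link of Nfe2l1 to the members was not tested. Nfe2l2 read 3288 on FoxO1, 2875 on FoxO3 and 5708 on FoxO4 by its brightest probe set, highest on the array labelled FoxO4. Of 8 measured in a list of 9, 1 was at least 2-fold higher and 1 lower by the brightest probe set for FoxO1 minus FoxO3 (20.7% and 18.0% of all genes). The counts were the same for FoxO1 minus FoxO4 (19.9% and 16.4%). The counts by the median over probe sets were 2 higher and 1 lower for FoxO1 minus FoxO3 (21.3% and 17.4% of all genes), and 1 higher and 2 lower for FoxO1 minus FoxO4 (20.4% and 16.9%). Transcript level does not measure the processing that activates Nfe2l1.

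Of 7 substrate shuttles measured in a list of 8, 4 were at least 2-fold lower on the array labelled FoxO1 than on FoxO3 by the median over probe sets (Rad23b, Ubqln1, Ubqln2 and Nploc4, beside 17.4% of all genes) and 0 higher. The brightest probe set gave 2 lower (beside 18.0%) and 0 higher. These were Ubqln4, at 3499 on FoxO1, 7331 on FoxO3 and 3094.5 on FoxO4, and Nploc4, at 1332 on FoxO1, 2752 on FoxO3 and 1274.5 on FoxO4. Vcp, the ATPase that extracts ubiquitinated proteins, read 33440.1 on FoxO1, 48095 on FoxO3 and 28350.1 on FoxO4. Uba6, the only measured gene of the 6 on the ubiquitin list, read 4189 on FoxO1, 3453 on FoxO3 and 2693 on FoxO4. The muscle ligases Fbxo32 and Trim63 were dim. Fbxo32 read 486 on FoxO1, 549 on FoxO3 and 119 on FoxO4 by its brightest probe set. Its median over probe sets was 486 on FoxO1, the floor of 73.1 on FoxO3 and 269.5 on FoxO4. The order of FoxO3 and FoxO4 for Fbxo32 thus depended on the summary. Trim63 read 144 on FoxO1, the floor of 73.1 on FoxO3 and 191 on FoxO4.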

How the data were processed

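The authors hybridised total RNA of each line to 1 Affymetrix array. The deposited signal table gives an intensity per probe set, scaled so that the 2% trimmed mean is 1000 on every array. The deposited log2 ratios are of FoxO RNAi over control RNAi, per the file headers, rounded to 0.1 and given with change calls. The submitters' processing notes name GCOS, with settings not given in the sources used here. GCOS may form its ratio from probe pairs rather than from the 2 signals, so the implied control is approximate.

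The ratio table has 1 identifier column. Across 45101 probe sets the FoxO1 ratio correlated with log2 signal on that array minus the mean of the others (r of 0.58), and the FoxO3 and FoxO4 ratios did not (-0.012 and -0.001). Only the FoxO1 ratio was read per probe set.

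Intensity was floored at the 20th percentile of each array before log2, and the ratio had no floor. A gene's value is the median over its probe sets, with the brightest one (highest mean log2 signal) as an alternative. Bright means a brightest probe set averaging over 1000, a limit set after the values were seen, and the threshold is 2-fold. All 49 members have an Entrez identifier in the RefSeq gene table. The members, classes and lists were chosen with earlier results of these data known. Every member could be named, with up to 3 genes each way per related list, and members with the largest values in full. Alternatives changed the floor, probe sets, gene summary, scaling, signal filter, ratio source and threshold. The interferon-type motif was shortened by 1 base after a first search with the longer form, which also matched a larger share of members than of genes, had been seen. With 1 array a group, no test was run, and the number of arrays limits the precision. The calculations were tested on simulated data. Values were computed in Python 3.11.15 with pandas 2.3.3, numpy 2.4.6 and scipy 1.17.1, and drawn in matplotlib 3.10.9.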

Additional observations from a re-analysis of the deposited data

How the results depend on the processing

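With 1 array a line, no repeat measures the spread, so a median counted as moved where it shifted by over 0.1 and a count where it differed by over 1.5 times. Of 115 alternative values for the medians and counts over all members 72 did not move and 43 did. The member median for FoxO3 minus FoxO4, near 0, changed sign under 1 alternative. Of 311 class medians 127 moved and 32 changed sign, among them the assembly chaperones for FoxO1 minus FoxO3 (0.23, and -0.069 by the brightest probe set) and the alpha ring for FoxO1 minus FoxO4 (-0.015 and 0.10). Of 302 values for single members past 2-fold, 67 fell below 2-fold without a change of sign and 11 changed sign. No paired analysis was possible because each group has 1 array. The causes of the shifts below were not tested. By construction, a lower threshold cannot make a count smaller. Leaving out dim genes, with the gene values unchanged, cannot make it larger.

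A 1.5-fold threshold gave 11 members lower for FoxO1 minus FoxO3 (6 at 2-fold). It gave 7 higher and 13 lower for FoxO1 minus FoxO4 (3 and 4), 10 higher for FoxO3 minus FoxO4 (5), and 3 higher and 16 lower for FoxO1 over control (1 and 7). The share of all genes past 1.5-fold was not computed, so these counts cannot be set against it. Centring each array on its median moved the member median to -0.45 for FoxO1 minus FoxO3, with 10 lower, and to -0.44 for FoxO1 minus FoxO4, with 8 lower. All other genes of a comparison shift with the members under centring. Quantile normalization, and FoxO1 minus the mean of the other arrays in place of the ratio, each left 3 members lower for FoxO1 over control. A floor at the 40th percentile left 1 higher and 2 lower for FoxO1 minus FoxO3, 1 higher for FoxO1 minus FoxO4 with a median of -0.12, and 2 higher and 4 lower for FoxO3 minus FoxO4. Genes above the median signal left 2 higher and 3 lower for FoxO1 minus FoxO3, and 3 higher and 4 lower for FoxO3 minus FoxO4. The share of all genes was not computed for these settings either, nor for the mean over probe sets or plain probe sets.

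The mean over probe sets gave 3 higher for FoxO1 minus FoxO3, a median of -0.12 for FoxO1 minus FoxO4 and 2 higher for FoxO1 over control. Plain probe sets gave a median of -0.13 and 1 higher for FoxO1 minus FoxO4, where Psma6 turned to -0.084 (1.43), a median of -0.18 for FoxO3 minus FoxO4, and a median of -0.40 with 2 higher for FoxO1 over control. The brightest probe set gave medians of -0.12 for FoxO1 minus FoxO4 and -0.40 for FoxO1 over control, with 3 higher for FoxO3 minus FoxO4 and 0 higher for FoxO1 over control. It turned Psmd9 to -0.45 (1.32) and Psme4 to -0.65 (1.03) for FoxO1 minus FoxO3, and Psmd2 to -0.082 (1.44), Psmd9 to 0.72 (-1.10) and Psme4 to 0.71 (-1.40) for FoxO3 minus FoxO4. Where that probe set also had to average over 1000, the same 5 values turned. Counts were then 1 higher and 1 lower for FoxO1 minus FoxO3, 0 higher and 2 lower for FoxO1 minus FoxO4, 1 and 1 for FoxO3 minus FoxO4, and 0 higher for FoxO1 over control, with medians of -0.12 for FoxO1 minus FoxO4 and -0.50 for FoxO1 over control. Signal near the floor limits the dim members, and RNA integrity and colony differ between arrays with the hairpin.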
